A study of Rattus norvegicus with 6 samples.

Results

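Isolated tiled regions are stretches of the array design that lie alone in the rat genome. Positions are those of the rat build rn4, as the files give them. Neighbouring probes no more than 1000 bp apart formed one tiled region, which gave 16123 of them. A region on chromosomes 1 to 20 was called isolated where no other region had its midpoint within 300 kb of its own midpoint. The rule uses positions only and no measured value. It found 731 isolated regions, which is 4.73% of the 15455 regions on chromosomes 1 to 20, and these hold 7094 of the 172669 probes. No gene is named for any region, since no rn4 annotation was used here, and no sequence is printed for the same reason.

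DNA methylation places a methyl group on cytosine, in mammals mainly where a cytosine is followed by a guanine (CpG). Dense CpG clusters at promoters are mostly free of the mark, whereas the sparse CpGs of the genome between genes mostly carry it. In methylated DNA immunoprecipitation on a chip (MeDIP-chip) an antibody against methylated cytosine pulls down DNA fragments, which are hybridised against the input DNA before capture. The capture depends on the number of methylated CpGs in a fragment, so a low ratio can come from unmethylated DNA or from DNA with few CpGs.

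The DNA came from hearts of SD rat pups at day 1, labelled as cardiac muscle. In the control group (3 arrays) the dams had received saline, and in the PM2.5 group (3 arrays) a suspension of fine airborne particulate matter, both dripped into the trachea under ether during pregnancy. Cy5 marked the captured DNA of a sample and Cy3 its input. The labels speak of newborn rats in the sample fields and of fetal hearts in the protocol. They call the samples biological replicates but name no litters, dose or sex, so p-values measure only the spread between these samples. Heart tissue holds several cell types, and a shift in their mix cannot be told apart from a change within cells.

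Most isolated regions had the array's usual size. They held a median of 10 probes, with 75.5% of them at 9 to 11 probes, and spanned a median of 1668 bp, against medians of 10 probes and 1664 bp in the other regions of chromosomes 1 to 20. The nearest other midpoint was 484 kb away at the median and 4625 kb at the most, whereas it was 29.1 kb away at the median of the other regions. Their mean probe length was slightly longer, with a median of 49.3 nt against 48.3 nt. Chromosome 2 held the most, 83 of its 975 regions (8.51%), followed by chromosomes 1 with 63 and 4 with 59. Chromosome 10 held 15 of 1304 (1.15%) and chromosome 12 held 6 of 430 (1.4%). Isolated regions were the first on their chromosome in 9 of 20 cases and the last in 8.

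The quantity read throughout is the log2 ratio of Cy5 over Cy3, with the median of the array set to 0. A region's value is the mean over its used probes, which are those with input well above background and with no spot marked as uneven or outlying on any of the 6 arrays. Of the 7094 isolated probes, 5381 passed the input filter and 2867 were used. At least 2 used probes were left in 658 isolated regions, while 58 kept 1 used probe and 15 kept none, and these 73 were not tested. The median tested region had 4 used probes. The loss to marked spots, after the input filter, came mostly through PM2.5 replicate 1, where 33.4% of isolated probes carried a mark, whereas the other arrays had 0.24% to 2.42%. Input was well above background at 80.6% to 89.0% of isolated probes and Cy5 at 67.2% to 73.7%, over the 6 arrays.

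Levels in control hearts ranged widely among the isolated regions. The mean control ratio had a median of -0.48 and ran from -4.06 to 1.16. In 174 of the 658 it lay above 0 (26.4%) and in 175 below -1 (26.6%). In the other regions of chromosomes 1 to 20 these shares were 24% and 26.6%. The shares above 0 and below -1 were thus about equal among the isolated regions. These cut-offs are not symmetric about 0, and most isolated regions lay below 0. The highest mean ratio over all arrays, among regions with at least 3 used probes, was on chromosome 14 from 57323399 to 57325146, where controls ran from 0.98 to 1.40 and the PM2.5 arrays had 1.69, 0.78 and 0.48. PM2.5 replicate 1 was above all controls there and the other two below them. Its difference was -0.17 with all arrays and -0.53 without that array, where it passed as lower (limma adjusted p 0.044). With scanning days blocked, which leaves PM2.5 replicate 1 alone on its day, it passed at -0.54 (limma adjusted p 0.0279). Next came chromosome 19 from 12497170 to 12498860, whose control mean was 1.06 ± 0.13 and PM2.5 mean 0.84 ± 0.17 (SD, n = 3 each), and chromosome 17 from 57867211 to 57868810, with 0.91 ± 0.12 and 0.95 ± 0.48. All used probes of these 3 had Cy5 well above background on every array.

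The lowest ratios were found on chromosome 14 from 43691 to 45356, chromosome 1 from 266512 to 268256 and chromosome 1 from 48250929 to 48252632. Their control means were -4.06 ± 0.07, -3.96 ± 0.13 and -3.91 ± 0.02 (SD, n = 3 each). The first and second of these are the first tiled regions of their chromosomes. Cy5 was well above background on at least 1 control array at only 1 of 7, 2 of 5 and 1 of 7 used probes, so these levels are near the floor of the Cy5 signal. Their mean probe lengths were 57.0, 58.6 and 53.6 nt.

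Isolated regions with longer probes had lower ratios, as the others did. Isolated regions with a mean probe length under 47 nt (173 regions) had a control mean of -0.04, and those of 53 nt or more (104 regions) of -1.30. The classes between had -0.41, -0.64 and -0.96. For this reason each isolated region was set against the other regions of chromosomes 1 to 20 with the same number of probes and the same mean probe length rounded to 1 nt. Such others existed for 655 of the 658, in 100 strata that hold 12396 regions.

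On each array the isolated regions lay slightly above their matched others. The mean ratio of the 655 read -0.53, -0.59 and -0.62 on control arrays 1 to 3, and -0.12, -0.39 and -0.45 on PM2.5 arrays 1 to 3. The matched others had -0.58, -0.66 and -0.69 on the former and -0.17, -0.46 and -0.49 on the latter. The difference was 0.0637 ± 0.00999 over the control arrays and 0.0563 ± 0.0121 over the PM2.5 arrays (SD, n = 3 each), and it was above 0 on 6 of 6 arrays. The arrays share the same probes, so this count shows only that the arrays are alike in it. No test was made of it, and its size turned on the distance limit: it was -0.000188 in controls with a limit of 200 kb and 0.0193 with 500 kb, against 0.0637 with 300 kb.

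**Figure D1:**
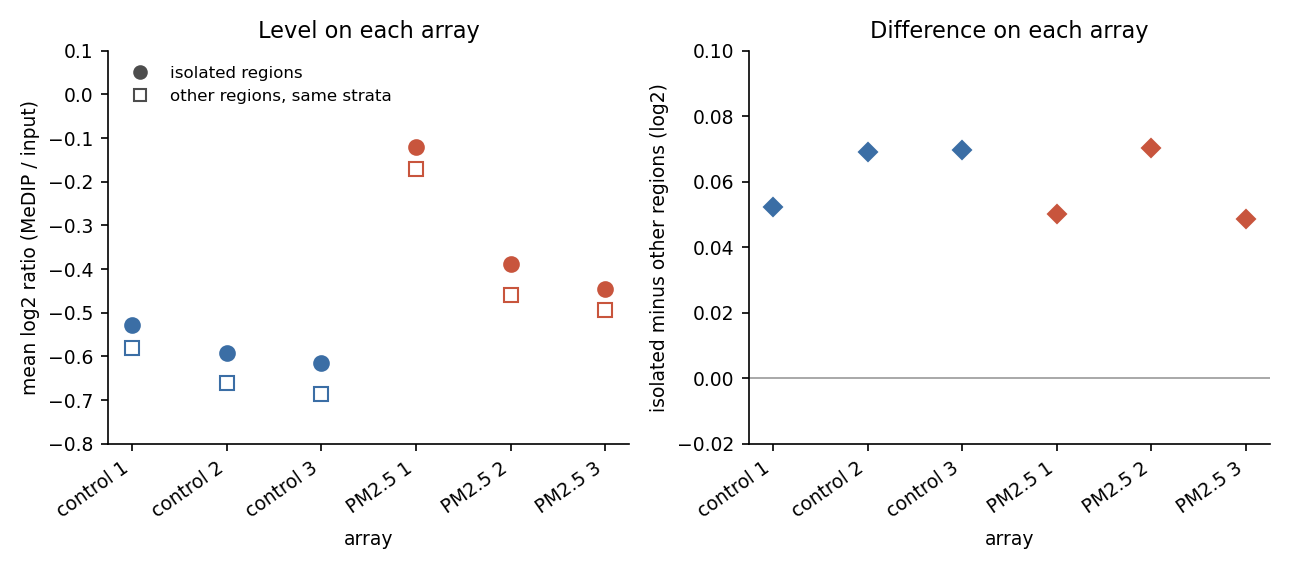
Mean log2 ratio of MeDIP over input on each of the 6 arrays (left) for the 655 isolated regions (filled circles) and for other regions of the same probe number and mean probe length (open squares), and their difference (right, log2); blue marks control and red PM2.5. The difference lies between 0.0486 and 0.0703 on every array, while the level of both sets is highest on PM2.5 replicate 1.

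The number of neighbours gave no steady order of levels. Regions with 1 other midpoint within 300 kb differed from their own matched others by -0.00312 in controls, those with 2 by 0.0247 and those with 3 or 4 by 0.0481. Regions with 10 to 19 neighbours differed by -0.0409 and those with 20 or more by -0.0475, with all 6 arrays below in both classes. Among the isolated regions themselves, the 209 whose nearest midpoint was 300 to 400 kb away stood 0.169 above their matched others in controls, while the 142 at 400 to 500 kb differed by -0.00193. Those at 500 to 750 kb, 750 to 1000 kb and over 1000 kb differed by 0.0145, 0.0895 and -0.00335. The excess was thus not largest in the most isolated regions. These classes were cut with the values in view.

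**Figure D2:**
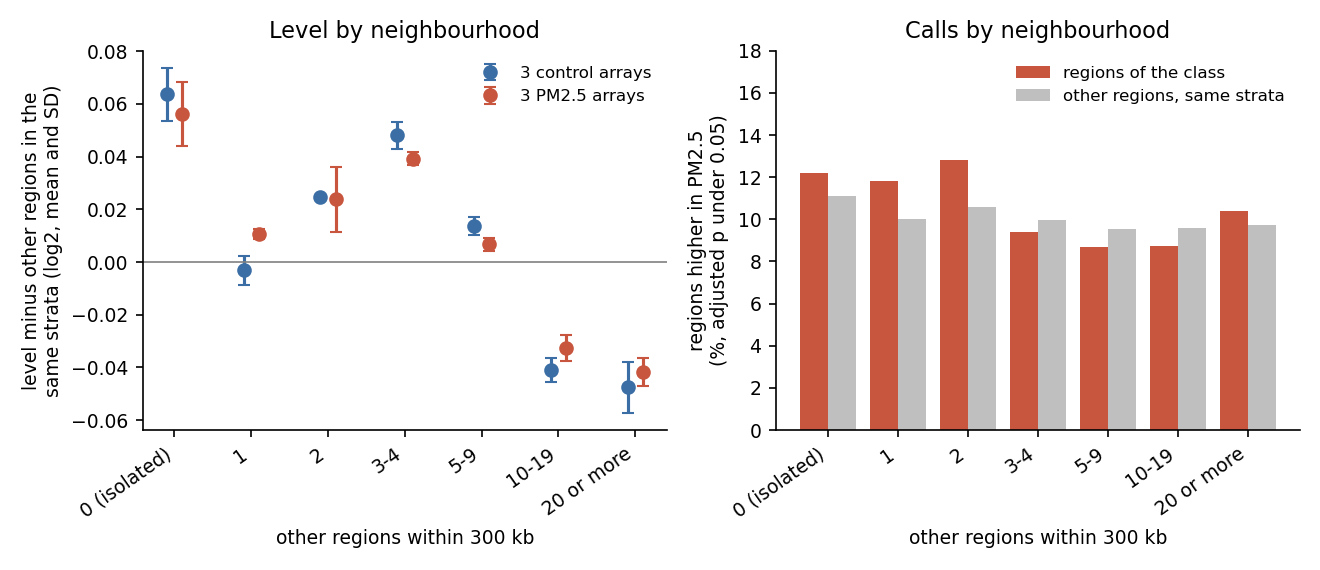
Tiled regions of chromosomes 1 to 20 by the number of other region midpoints within 300 kb: their level minus that of other regions in the same strata (left, log2, mean and SD over 3 arrays a group), and the percent called higher in PM2.5 beside the percent in those other regions (right). Isolated regions have 12.2% called against 11.1%, and the 7 classes range from 8.71% to 12.8%.

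Pooled over regions, the ratio was lowest at the edge, among the probes farthest from the midpoint. In isolated regions of 6 to 20 probes, used probes within 250 bp of the midpoint had a control mean of -0.53 ± 0.06, those at 250 to 500 bp -0.54 ± 0.05, those at 500 to 750 bp -0.59 ± 0.04 and those farther out -0.78 ± 0.05 (SD, n = 3). The same probes had -0.27 ± 0.19, -0.29 ± 0.16, -0.32 ± 0.16 and -0.48 ± 0.19 in PM2.5. Mean probe length was 49.5, 49.3, 49.6 and 50.1 nt in that order, and its part in the lower edge was not tested. Other regions showed the same lower edge, with -0.55, -0.52, -0.61 and -0.74 in controls. Used probes of a region differed from each other by a standard deviation of 0.82 at the median of the 548 isolated regions with at least 3 used probes, so a region's mean hides a wide range of single probes.

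The study asked how exposure of the dams to PM2.5 relates to methylation in the hearts of their pups. Of the 658 tested isolated regions, 80 rose in PM2.5 (12.2%; limma, adjusted p under 0.05 over all tested regions) and 0 fell. Over all 14786 tested regions 9.79% were called higher and 0.0473% lower, over the other regions of chromosomes 1 to 20 9.51% and 0.0517%, and over the matched others 11.1% and 0.0641%. Without adjustment, 223 isolated regions (33.9%) passed limma's 0.05 as higher and 6 (0.912%) as lower, against 32.5% and 0.622% of all tested regions and 32.3% and 0.621% of the other regions. The 3 arrays of each group did not overlap in 258 isolated regions with PM2.5 higher and in 17 with PM2.5 lower (39.2% and 2.58%), against 37.9% and 1.9% of all tested regions, 37.6% and 1.9% of the other regions and 40.1% and 1.7% of matched others. The shares of isolated regions thus lay near the background.

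The median isolated region changed by 0.25 (log2), 80% of the changes lay between -0.08 and 0.63, and 83.3% were above 0, against 83.6% of all tested regions and 83.5% of the other regions. The median was 0.24 over all tested regions and 0.25 in the matched others, and the medians of the isolated regions and their matched others differed by -0.000313. An array's centre cancels in that last value. It does not cancel in the change itself: with the centre taken over the 70843 probes left unmarked by every array (the common centring), the median change was 0.07 and 14 isolated regions were called higher and 3 lower. The 3 lower ones lie on chromosome 10 from 53190324, chromosome 8 from 7190146 to 7191859 (-0.54, and -0.35 as designed) and chromosome 9 from 101532197 to 101533963 (-0.58, and -0.39 as designed), the last 2 with 2 used probes each. In limma, leaving out control replicate 2 ended all 80 calls (157 isolated regions higher and 1 lower before adjustment), as did leaving out control replicate 3 (131 and 0). A random block for the slide left 1, on chromosome 14 from 42328888. Control replicates 2 and 3 were taken to share a slide because they have the same scan time. Without PM2.5 replicate 1 there were 95 higher and 1 lower (the region of highest ratio, on chromosome 14), and the median change was 0.14. With a loess curve fitted within each array 11 were higher and 4 lower, the latter on chromosome 10 from 38189304, chromosome 2 from 238984166, chromosome 20 from 54580353 and chromosome 9 from 485585. Of these 4, only the region on chromosome 10 had a lower mean in PM2.5 as designed. With scanning days blocked 131 were higher and 7 lower. The 7 are the regions from 53190324 on chromosome 10, 57323399 on chromosome 14, 7190146 on chromosome 8 and 101532197 on chromosome 9 named above, and those from 58647044 on chromosome 19, 31335746 on chromosome 4 and 22048930 on chromosome 5. All 7 had a lower mean as designed, from -0.17 to -0.39.

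**Figure D3:**
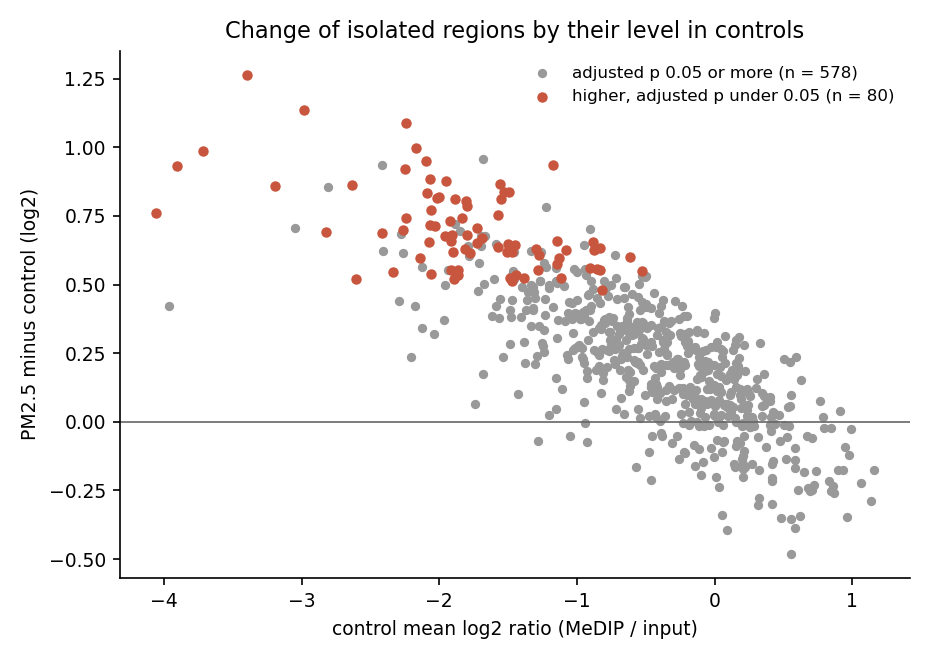
Change of the 658 tested isolated regions (PM2.5 minus control, log2) against their mean log2 ratio in controls; red points are the 80 called higher (limma, adjusted p under 0.05). Calls lie at control ratios from -4.06 to -0.53; the control values enter both axes, which by itself tilts the cloud downwards.

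Called regions were those with low ratios. The 80 had a median control ratio of -1.81 and a median PM2.5 ratio of -1.09, and fitted changes from 0.48 to 1.26 with a median of 0.66, of which 2 had no used probe with Cy5 well above background on any array. Of the 175 isolated regions with a control ratio under -1, 70 were called (40%), and of the remaining 483, 10 were (2.07%). The same split over all tested regions gave 31.9% and 1.77%. Their probes were longer, with a median of the mean probe length of 51.9 nt against 49.1 nt in the isolated regions not called. With all tested regions cut into 3 equal classes by the mean ratio over all arrays, the lowest class (214 isolated regions) moved from -1.54 ± 0.11 in controls to -1.04 ± 0.18 in PM2.5, the middle class (214) from -0.50 ± 0.06 to -0.25 ± 0.15, and the highest class (230) from 0.22 ± 0.03 to 0.28 ± 0.19 (SD, n = 3 each). The arrays of the groups did not overlap in the lowest and middle classes and overlapped in the highest, where the PM2.5 values were 0.48, 0.22 and 0.13. These values use each array's own centre. The common centring takes the same amount off every region's change, and the median over isolated regions fell from 0.25 to 0.07. The classes were not redone under it, so the sign of the small difference in the highest class is not settled.

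Signal near background accompanied these calls. In the 80 called regions, 291 of 316 used probes (92.1%) had a higher mean in PM2.5, and in 58 regions all used probes did. Cy5 was well above background on no array at 107 of the 316 probes (33.9%), where the median change was 1.03, and on all 6 arrays at 118 (37.3%), where it was 0.43. Over all used probes of the tested isolated regions these were 391 of 2809 (13.9%; median change 0.83) and 1786 (63.6%; median change 0.08). Other regions of chromosomes 1 to 20 had 12.9% and 64.9% of such probes, with median changes of 0.81 and 0.09. At 69 of the 80 called regions at least 1 used probe stayed near background in Cy5 on every control array. The Cy5 level of such a probe is only an upper bound. With only probes bright in both channels on all arrays, 505 isolated regions were tested and 1 was called higher (0.198%, against 0.187% of all 11776), and the median change was 0.08.

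That 1 region lies on chromosome 17 from 72561769 to 72564335 and was singled out after its values were seen. Over its 6 used probes the ratio was -1.76, -1.88 and -2.10 on the control arrays and -0.87, -1.42 and -1.48 on the PM2.5 arrays. The groups did not overlap, and the change was 0.66 (standard error 0.18) at a limma adjusted p of 0.0449. At its probes bright in both channels, only 2 and so the fewest that were tested, the change was 0.88, with a limma adjusted p of 0.0498.

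Among the called regions, the largest fitted difference stood on chromosome 6 from 85797978 to 85799639, 457 kb from the nearest midpoint. Its ratio was -2.92, -3.71 and -3.55 on the control arrays and -1.82, -2.31 and -2.26 on the PM2.5 arrays. It rests on 2 of 7 probes, and Cy5 was well above background at neither on any array. The fitted difference of 1.26 (limma adjusted p 0.0235) is therefore not a measured change in captured DNA, and its place in the order is not read.

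Among called regions with some Cy5 well above background the largest rise was on chromosome 9 from 79633977 to 79635658, where the control arrays read -2.62, -3.04 and -3.31 and the PM2.5 arrays -1.33, -2.18 and -2.04, a fitted rise of 1.14 over 6 used probes with an adjusted p of 0.0285 (limma). Of these probes 2 had Cy5 well above background on some array of each group. The first, with 5 such arrays, did not rise (0.27 in controls and 0.22 in PM2.5). The second, with 4 such arrays, had -2.88 and -2.06. The other used probes had Cy5 well above background on 0 arrays, so most of the fitted rise rests on them. In the region's mean, PM2.5 replicate 1 stood above the other two PM2.5 arrays, which still lay above all controls.

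Chromosome 15 from 76736809 to 76738597 holds a region 2320 kb from any other. Its ratio was -2.08, -2.17 and -2.47 on control arrays, against -0.59, -1.54 and -1.33 on PM2.5 arrays, a rise of 1.09 (standard error 0.22) at a limma adjusted p of 0.0284. All 6 used probes had a higher mean in PM2.5, from -1.39 to -1.05 at the smallest step and from -3.27 to -1.69 at the largest. The probe with the largest step had Cy5 well above background on no array.

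On chromosome 20 from 31620674 to 31622309 the values were -1.97, -2.12 and -2.42 on control arrays, against -0.52, -1.46 and -1.54 on PM2.5 arrays (fitted rise of 1.00, limma adjusted p 0.0361, 4 used probes). These probes had Cy5 well above background on 1, 0, 4 and 1 arrays. The probe with 4 such arrays did not rise, with -1.33 in controls and -1.38 in PM2.5, so the fitted rise rests on probes near background. The last of the 5 named lies on chromosome 14 from 42328888 to 42329397. Its values were -3.66, -3.74 and -3.76 on control arrays, against -2.72, -2.75 and -2.73 on PM2.5 arrays, a fitted difference of 0.99 at a limma adjusted p of 0.0194. This region has only 2 probes, both used and both with Cy5 not well above background on any array, so its difference is not read as a measured change either. For each of these 5 regions the exact two-sided permutation p was 0.1, the smallest that 3 against 3 can give. They were picked with groups that do not overlap, which fixes that value, so it adds nothing to their selection. Their fitted differences ranged from 0.99 to 1.26 as designed, from 0.37 to 0.62 with normexp background correction and from 0.05 to 0.32 in the authors' deposited values, and none had 2 probes bright in both channels on all arrays.

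No isolated region was called lower with all arrays as designed. The smallest unadjusted p among lower means with at least 3 used probes was on chromosome 10 from 53190324 to 53192028. The ratio there was 0.85, 1.01 and 1.03 on control arrays, against 0.72, 0.66 and 0.47 on PM2.5 arrays, so the groups did not overlap, and the difference was -0.35 (standard error 0.14) at a limma adjusted p of 0.108. Cy5 was well above background on all arrays at its 4 used probes. Of these, 3 had a lower mean in PM2.5, from 1.62 to 0.63 at the most, and 1 a higher mean, 0.49 against 0.61. Under the common centring this region passed, at -0.53 and a limma adjusted p of 0.0476, and with scanning days blocked, at -0.37 and 0.0302.

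Next by p came chromosome 19 from 29751302 to 29753006, where controls averaged 0.59 ± 0.27 and PM2.5 0.20 ± 0.15 (SD, n = 3 each). On chromosome 9 the stretch 102183825 to 102185599 averaged 0.42 ± 0.13 and 0.12 ± 0.12, and the stretch 106502664 to 106504371 averaged 0.71 ± 0.15 and 0.46 ± 0.13. On chromosome 3, bases 121371515 to 121372995 had 0.69 ± 0.02 and 0.44 ± 0.09. Their limma adjusted p-values ran from 0.125 to 0.237. Groups did not overlap in the regions on chromosomes 10 and 3 and in the former of those on chromosome 9, and overlapped in the other two. These 5 regions had short probes, with means from 45 to 45.4 nt, and high ratios, the reverse of the rises. They kept a lower mean in PM2.5 in each setting that tested them, from -0.16 to -0.32 in the authors' deposited values.

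**Figure D4:**
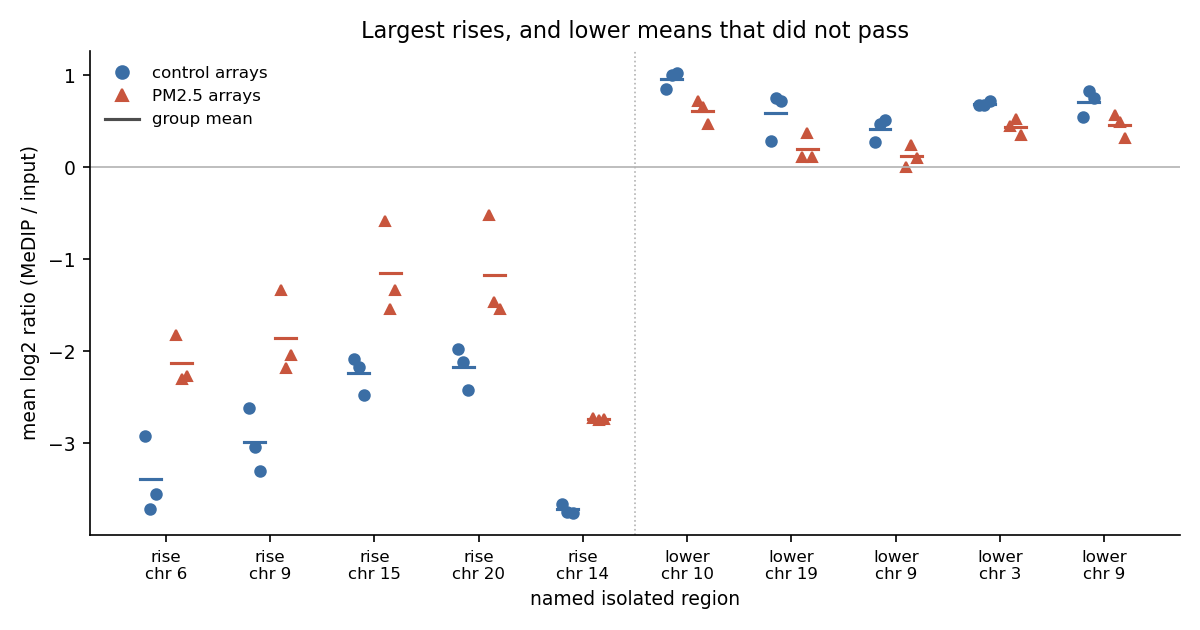
Mean log2 ratio of MeDIP over input on the 3 control arrays (circles) and 3 PM2.5 arrays (triangles), with group means as bars, in the 5 called isolated regions with the largest fitted differences and the 5 lower ones of smallest unadjusted p. All 5 called regions have controls under -1.9, and those on chromosomes 6 and 14 have no Cy5 well above background, and all 5 lower regions have control means above 0.4.

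As designed, the farthest isolated regions had the highest share of calls. Over 1000 kb from the nearest midpoint, 19 of 89 tested isolated regions were called higher (21.3%), against 12.9% of their matched others. The share was 9.57% of the 209 at 300 to 400 kb, 13.4% of 142 at 400 to 500 kb, 10.4% of 163 at 500 to 750 kb and 9.09% of 55 at 750 to 1000 kb, with matched shares of 10.7% to 11%. The median change over 1000 kb was 0.33, against 0.27 in their matched others, and from 0.19 to 0.27 in the nearer classes. The excess was not tested, and these distance classes too were cut with values in view. The common centring left 4 of the 89 (4.49% against 2.62% in matched others), 0 were called without control replicate 2 or control replicate 3, and 0 of 60 were called with both channels bright. Without PM2.5 replicate 1, 22 of the 89 were called (24.7% against 14.9%).

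Among these 19, chromosome 11 held 4, between 1032952 and 13175995. The first of them, from 1032952 to 1034448, is the first tiled region of the chromosome. It had a fitted rise of 0.95, from -2.09 ± 0.09 to -1.15 ± 0.40 (SD, n = 3 each), over 2 used probes. Of these, only 1 had Cy5 well above background on some control array and only 1 on some PM2.5 array. On chromosome 16 from 11612609 to 11614211, with 7 used probes, control arrays read -1.95, -2.17 and -2.11 and PM2.5 arrays -1.40, -1.51 and -1.36 (rise of 0.66, limma adjusted p 0.0285). Cy5 was well above background on some PM2.5 array at all 7 of these probes and on some control array at 6. On chromosome 5 from 86215772 to 86217348, also with 7 used probes, the values were -1.14, -1.32 and -1.37 on control arrays, against -0.56, -0.71 and -0.74 on PM2.5 arrays (rise of 0.61, limma adjusted p 0.031). Cy5 was well above background on some control array at 5 of these 7 probes and on some PM2.5 array at 5. In these regions on chromosomes 16 and 5 the spread within each group was small against the gap between groups, which their selection by limma already favours.

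The most isolated region of all lies on chromosome 13 from 22854944 to 22856697, 4625 kb from the next midpoint. Its values were -1.28, -1.15 and -1.37 on control arrays, against -0.44, -0.97 and -0.86 on PM2.5 arrays. The groups did not overlap, but the change of 0.51 did not pass (limma adjusted p 0.0622). It passed with marked spots kept (0.35, limma adjusted p 0.0481) and over regions with at least 5 used probes (0.0368). Settings in which it did not pass include the common centring (0.33, limma adjusted p 0.137) and no input filter (0.14, 0.484). With both channels well above background its change was only 0.09 (limma adjusted p 0.751). The second, on chromosome 14, is the region of highest ratio given above, at 4436 kb. The third, on chromosome 16 from 89938554 to 89939769 at 3752 kb, is the last tiled region of its chromosome and had -1.74, -2.03 and -1.99 on control arrays, against -1.19, -1.31 and -1.59 on PM2.5 arrays. This rise of 0.55 passed with a limma adjusted p of 0.0465. It also passed with marked spots kept (0.40, limma adjusted p 0.0321) and over regions with at least 5 used probes (0.0287). Settings in which it did not pass include the common centring (0.37, limma adjusted p 0.089) and no input filter (0.46, 0.0854). With both channels well above background it did not pass either (0.48, limma adjusted p 0.117).

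At the limit itself, the 3 regions just inside lay 300.1, 300.4 and 301.0 kb from their nearest midpoint, on chromosome 2 from 40194911, chromosome 7 from 101575491 and chromosome 4 from 178657600. Their mean ratios were -2.63, -0.03 and 0.38 on control arrays, against -1.77, 0.06 and 0.28 on PM2.5 arrays. The 3 tested regions just outside lay 299.7, 299.7 and 299.6 kb away, on chromosome 16 from 83378699 and from 83678428, which are each other's nearest, and on chromosome 1 from 119750047. Their mean ratios were 1.34, 0.11 and -2.48 on control arrays, against 1.20, 0.28 and -1.43 on PM2.5 arrays. Both sides of the limit thus held high, middle and low regions.

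By chromosome, the share of tested isolated regions called higher ran from 2.56% (1 of 39, chromosome 3) to 23.3% (7 of 30, chromosome 14). Chromosomes 14 and 11 had the highest shares and also the lowest mean control ratios, -1.02 and -0.98. Chromosomes 19, 8 and 7 had the highest mean control ratios, from -0.35 to -0.31, with shares of 17.6% (3 of 17), 7.69% (2 of 26) and 4.88% (2 of 41). Counts of this size do not order chromosomes.

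The isolated region with most probes is also by far the longest, with 262 probes over 49925 bp on chromosome 7 from 29077660 to 29127584. Its nearest midpoint is 643 kb away. Over 121 used probes the ratio was -1.18, -1.34 and -1.43 on the control arrays and -0.59, -0.94 and -0.95 on the PM2.5 arrays. The groups did not overlap, and the change of 0.49 (standard error 0.15) had a limma adjusted p of 0.0568, just short of the threshold. It passed with marked spots kept (0.33, adjusted p 0.0386), over regions with at least 5 used probes (0.0339) and with scanning days blocked in limma (0.35, 0.0429). Settings in which it did not pass include the common centring (0.30, limma adjusted p 0.112) and normexp background correction (0.25, 0.224). They also include both channels well above background (0.16, limma adjusted p 0.436) and the authors' deposited values (0.095, 0.749). Single probes ran from -4.75 to 0.88 in controls, and 106 of the 121 had a higher mean in PM2.5.

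Along this region the ratio had a trough left of the midpoint. In windows of 5 kb, control means were -1.07 ± 0.12, -0.53 ± 0.10, -1.79 ± 0.17, -2.06 ± 0.25 and -2.60 ± 0.02 (SD, n = 3 each) up to the midpoint. Beyond it they were -0.96 ± 0.16, -0.98 ± 0.10, -1.36 ± 0.14, -1.28 ± 0.21 and -1.01 ± 0.05. The PM2.5 arrays followed the same course at a higher level, with -2.10 ± 0.48 at the lowest window and -0.27 ± 0.13 at the highest. The differences ran from 0.25 to 0.68, and the arrays of the groups did not overlap in 8 of 10 windows. The lowest window, from 29097622 to 29102621, rests on 7 used probes. The probe there with Cy5 well above background on all 6 arrays had 0.32 in controls and 0.16 in PM2.5. The others had it on 0 or 1 array, so the level of this window is near the floor of the Cy5 signal. Probes of 60 nt made up 35 of the 121 and had a control mean of -2.05, against -0.21 at the 15 probes of 45 nt. In PM2.5 these were -1.37 and -0.08. Cy5 was well above background on all arrays at 51 probes, where control arrays averaged -0.22 and PM2.5 arrays -0.04, and on no array at 37. These values too use each array's own centre. The common centring takes the same amount off the change of every probe, and the region's change fell from 0.49 to 0.30. The bright probes were not redone under it, so their small difference is not read as a rise.

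**Figure D5:**
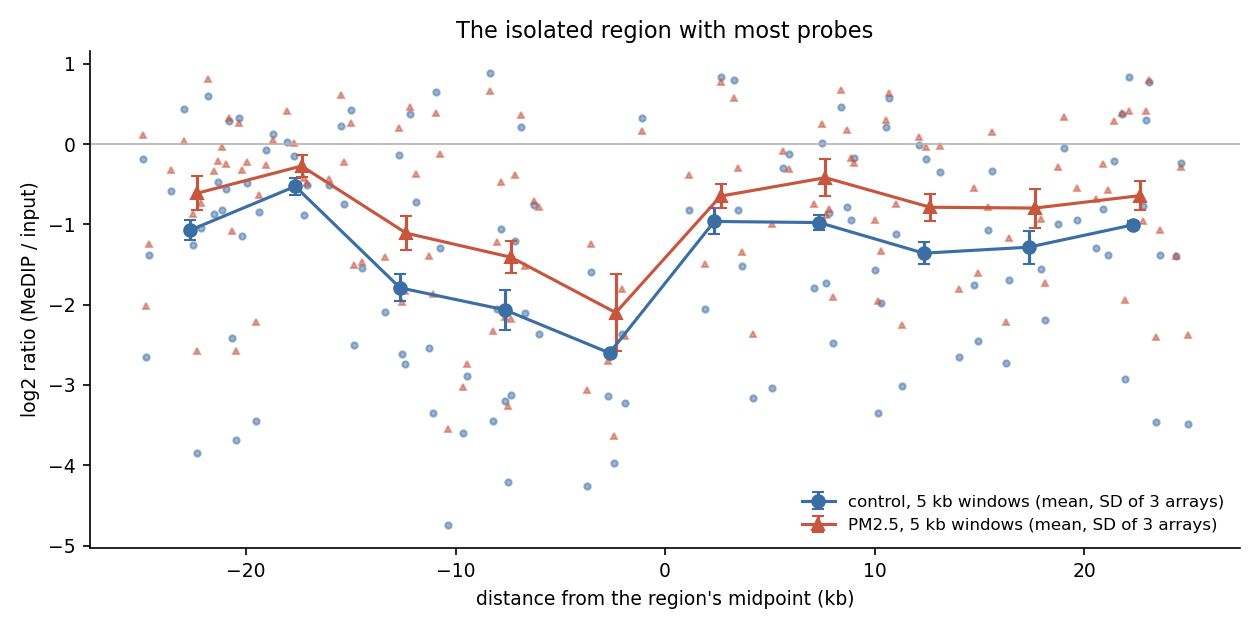
Log2 ratio of MeDIP over input along the isolated region with most probes, by distance from its midpoint in kb: small points are the 121 used probes (mean of 3 arrays a group), and large symbols with bars are means and SD over 3 arrays in windows of 5 kb. PM2.5 (red) lies above control (blue) in all 10 windows, and both have their lowest window just left of the midpoint, at -2.10 and -2.60. Most used probes of that window had Cy5 well above background on no array.

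The second by probe number, with 21 probes over 4039 bp, is the last region of chromosome 1, from 267883783 to 267887821. It had -0.98, -0.99 and -0.87 on control arrays, against -0.65, -0.71 and -0.83 on PM2.5 arrays. The change of 0.21 did not pass (limma adjusted p 0.274), although the groups did not overlap.

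Arrays were scanned on 3 days, per the file headers, with control replicate 1 and PM2.5 replicate 3 on one day, control replicates 2 and 3 and PM2.5 replicate 2 on another, and PM2.5 replicate 1 alone. Within the first of these days the median change of the isolated regions was 0.06 (0.06 over all regions), and within the second 0.20 (0.19 over all). The 80 called regions had median changes of 0.47 and 0.63 within these days. All 80 were higher on both, which their selection nearly fixes, since in 79 of them every PM2.5 array lies above every control. Over the isolated regions, PM2.5 replicate 1 correlated with the other arrays at 0.869 to 0.880, and the other pairs at 0.930 to 0.983. The highest was between controls 2 and 3, which share a scan time in the file headers and were therefore taken to share a slide. Across regions the ratios spread less on PM2.5 arrays, with a standard deviation over isolated regions of 0.655 ± 0.0176 against 0.843 ± 0.0568 in controls (SD, n = 3 each), and 0.631 ± 0.014 against 0.794 ± 0.0471 over the other regions.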

How the data were processed

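MeDIP and input DNA of 6 heart samples were hybridised to 2-colour tiling arrays. Per the file headers, the authors deposited spot intensity values from Feature Extraction 11.0.1.1 on build rn4, after background subtraction, spatial detrending and a linear dye normalisation. The log2 table that the authors deposited, of unstated scale and smoothing (array medians -0.00596 to 0.027; correlation 0.851 to 0.881 with the scanner ratios), served as an alternative; its direction follows MeDIP over input. Log2 ratios of processed signals were centred on each array's median of unmarked spots with input well above background on all arrays (135720 probes; 70843 unmarked on all). Region means were tested in R 4.3.3 with limma 3.58.1 (lmFit, eBayes; Benjamini-Hochberg over 14786 regions), after a test on simulated data; matplotlib 3.10.9 drew the plots. The number of arrays limits the precision. The members, lists and tests were chosen with earlier results of these data known, so isolated regions as a set are described without a p-value. Matched values weight other regions to the isolated ones' strata. The text names the 5 top rises and 5 top falls that passed with groups apart (falls filled by smallest unadjusted p, at least 3 used probes), the 3 highest and lowest ratios, the 3 farthest, the 3 either side of the limit and the 2 with most probes. Alternatives covered background correction (normexp, offset 50), normalisation (quantile; loess, span 0.3), centring, filters, blocks, matching, distance limits and each array left out.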

Additional observations from a re-analysis of the deposited data

How the results depend on the processing

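All alternatives were listed with earlier results known. The 80 isolated regions called higher and 0 lower became 0 and 0 with normexp correction, quantile normalisation or the authors' values (before adjustment, limma's 0.05 passed 156, 60 and 31 as higher, and 7, 7 and 16 as lower), 11 and 4 with loess, 14 and 3 with centring on probes unmarked on all arrays, 63 and 1 with marked spots kept (the lower one on chromosome 8 from 7190146), 1 and 0 with both channels well above background, 17 and 0 without an input filter, 55 and 0 with at least 5 used probes, 140 and 0 with a limit of 200 kb and 41 and 0 with 500 kb (other sets of regions). They became 131 and 7 with scanning days blocked and 1 and 0 with the slide as a random block (correlation 0.574 by moments, since duplicateCorrelation returned none). Leaving out each array gave 0 to 95 higher and 0 to 1 lower, with 0 higher without control replicate 2 or control replicate 3. The replicate block gave 144 higher and 0 lower (adjusted p 0.0331 for the region with most probes and 0.0492 for the farthest, limma), but same-numbered arrays deviated together at -0.00814, 0.113 and -0.148 over regions, so the numbers give no pairing. The causes were not tested.

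The median change of 0.254 became 0.13 with normexp, 0.137 with scanning days blocked, 0.127 with quantile normalisation, 0.0873 with loess, 0.0674 with the common centring, 0.0635 with marked spots kept, 0.0804 with both channels well above background and 0.0135 in the authors' values, and ran from 0.138 to 0.327 without single arrays (lowest without PM2.5 replicate 1). Isolated minus matched medians, -0.000313 as designed, were 0.0119 with quantile normalisation, -0.0146 with marked spots kept and -0.0178 to 0.0116 without single arrays, so the sign is not settled. The matched level in controls, 0.0637, was 0.0419 with normexp, 0.0486 with both channels well above background, 0.0758 with at least 5 used probes, 0.0255 in the authors' values, -0.000188 at 200 kb, 0.0193 at 500 kb and 0.0426 when matched on used probes. Without single arrays it was 0.0607 to 0.0694. In the authors' values the regions on chromosome 14 from 43691 (-0.0149) and chromosome 2 from 40194911 (-0.0213) turned to lower means, as did the region not called on chromosome 1 from 266512 (0.421 to -0.274), and 64 of the 80 called regions stayed higher. Cy5 near background limits the regions of low ratio most.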
